A study of Mus musculus with 46 samples.

Results

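The Slc30a genes encode the ZnT transporters, and all 10 genes named Slc30a1 to Slc30a10 were described here in mouse liver. Members were taken by exact gene symbol in the platform annotation of the arrays. Each was measured by 1 probe set, so 10 of the 23410 probe sets with a gene symbol (35512 in all, and 21335 genes) are described. The arrays were Affymetrix whole-transcript arrays hybridised with liver RNA of SKH:QS mice, a hairless laboratory stock, with 1 array per mouse and 46 mice in all.

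Sunscreen was applied to the back 6 times over 4 days, and liver was collected on day 5. The nano ZnO arm received sunscreen with zinc oxide nanoparticles made from the stable isotope 68Zn, the micro ZnO arm received the microparticle version, the formulation arm received the sunscreen base without particles, and the untreated arm received none. These 4 arms were run in a separate experiment on pregnant mice at about 17 days of gestation, with 6 nano ZnO, 5 micro ZnO, 6 formulation and 5 untreated mice, and in an experiment on virgin mice, with 6 mice in every arm. All mice were housed individually under 14 h of light and 10 h of dark and were killed by dislocation after an anaesthetic injection. The protocol lists collars against licking for the mice without saying whether the untreated ones wore them. Ages are not given in the labels.

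ZnT proteins move zinc out of the cytosol, either across the plasma membrane or into organelles, and so oppose the ZIP importers encoded by the Slc39a genes. Cytosolic zinc is buffered by metallothioneins, and the zinc-sensing factor MTF1 activates metallothionein genes and Slc30a1 through metal response elements in their promoters. Slc30a10 differs from its relatives in exporting mainly manganese, and in liver it serves the excretion of manganese into bile.

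The promoters of the plasma membrane exporters Slc30a1 and Slc30a10 are shown because both genes were called in each particle arm against untreated virgin mice. Each sequence is the 250 bases before the gene start from RefSeq (GRCm38.p6). Slc30a1 covers chr1:191906531-191906780 on the plus strand and Slc30a10 covers chr1:185454598-185454847 on the plus strand. Capitals mark matches to the core of the metal response element, searched as TGCACNC and TGCGCNC on both strands.
Slc30a1: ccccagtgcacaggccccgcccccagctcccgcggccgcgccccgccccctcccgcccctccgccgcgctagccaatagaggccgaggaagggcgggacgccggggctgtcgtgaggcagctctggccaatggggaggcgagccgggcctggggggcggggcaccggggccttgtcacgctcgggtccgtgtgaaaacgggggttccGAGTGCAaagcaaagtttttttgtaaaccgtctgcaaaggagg
Slc30a10: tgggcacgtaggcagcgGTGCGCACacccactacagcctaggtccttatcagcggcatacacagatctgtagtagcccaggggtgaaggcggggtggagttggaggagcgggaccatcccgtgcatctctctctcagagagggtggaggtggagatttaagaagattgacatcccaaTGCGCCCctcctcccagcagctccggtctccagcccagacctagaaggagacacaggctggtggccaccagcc
The Slc30a1 window held 1 match, whose first base lay at position -43 from the start. The Slc30a10 window held 3 matches, at -233, -232 and -73, of which the first and second overlap on opposite strands. A RefSeq window was matched for 9 of the 10 genes, and 6 of these 9 (Slc30a1, Slc30a2, Slc30a3, Slc30a4, Slc30a5 and Slc30a10) held at least 1 match, while Slc30a3 had a further window with 0. Of 32851 mouse windows of this length, 21.4% held at least 1 match and 5.17% at least 2. The metallothionein genes had 1 match (Mt1) and 3 matches (Mt2). A match describes these letters only, and absence of a match says nothing about the binding of MTF1.

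The values are log2 intensities normalized by the authors with RMA, in which a difference of 1 is a doubling of signal. Array medians ran from 3.98 to 4.12 in the pregnant experiment and from 4.66 to 4.90 in the virgin experiment, so levels were not compared across experiments or between probe sets. Correlations between arrays ran from 0.971 to 0.99 in the pregnant experiment and from 0.968 to 0.989 in the virgin experiment, and 0 pairs of arrays were identical. Hepatocyte markers averaged 12.62 to 12.81 in the pregnant groups and 13.1 to 13.26 in the virgin groups, and pancreatic islet markers averaged 3.366 to 3.791 in pregnant and 4.047 to 4.465 in virgin groups. Replicates 3 and 4 of pregnant micro ZnO had first principal component scores of 47.1 and 31.2, apart from their group (that component held 21.8% of variance in pregnant mice), and 0 exporters were called in the pregnant micro ZnO comparisons with or without them. Slc30a8 lay below the 40th percentile of signal in both experiments, with a mean of 2.71 in pregnant and 3.87 in virgin mice, and Slc30a2 lay below it in pregnant mice, with a mean of 3.64. Those 3 gene and experiment combinations have little signal to compare. A gene was called at an adjusted p under 0.05 in limma with Benjamini-Hochberg adjustment over the 23410 probe sets, and values after ± are SE unless SD is named. Bulk liver RNA was measured, so fewer cells of a type and less RNA per cell cannot be told apart.

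Across the comparisons of arms, 0 of the 10 exporters were called in pregnant mice, where no comparison called more than 0.107% of all probe sets. The 5 called in virgin mice are pooled over comparisons that singly called up to 26.5% of all probe sets. A pooled share of all probe sets was not counted, so these counts are not a contrast particular to the exporters. In virgin mice Slc30a1 and Slc30a3 rose and Slc30a10 fell with nano ZnO, Slc30a1 rose and Slc30a10 fell with micro ZnO, and Slc30a3 rose and Slc30a5 and Slc30a6 fell with formulation. Against untreated pregnant mice 0 of the 10 members were called with nano ZnO (0.0214% of all probe sets), 0 with micro ZnO (0.107%) and 0 with formulation (0.0598%). Against untreated virgin mice 3 of 10 were called with nano ZnO (11.9%), 2 with micro ZnO (4.43%) and 3 with formulation (26.5%). The 3 comparisons of each experiment share the untreated arrays. The median difference over the 10 members in virgin mice was -0.03 with nano ZnO, 0.00 with micro ZnO and -0.13 with formulation, beside 0.02, 0.01 and 0.03 over all probe sets.

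**Figure D1:**
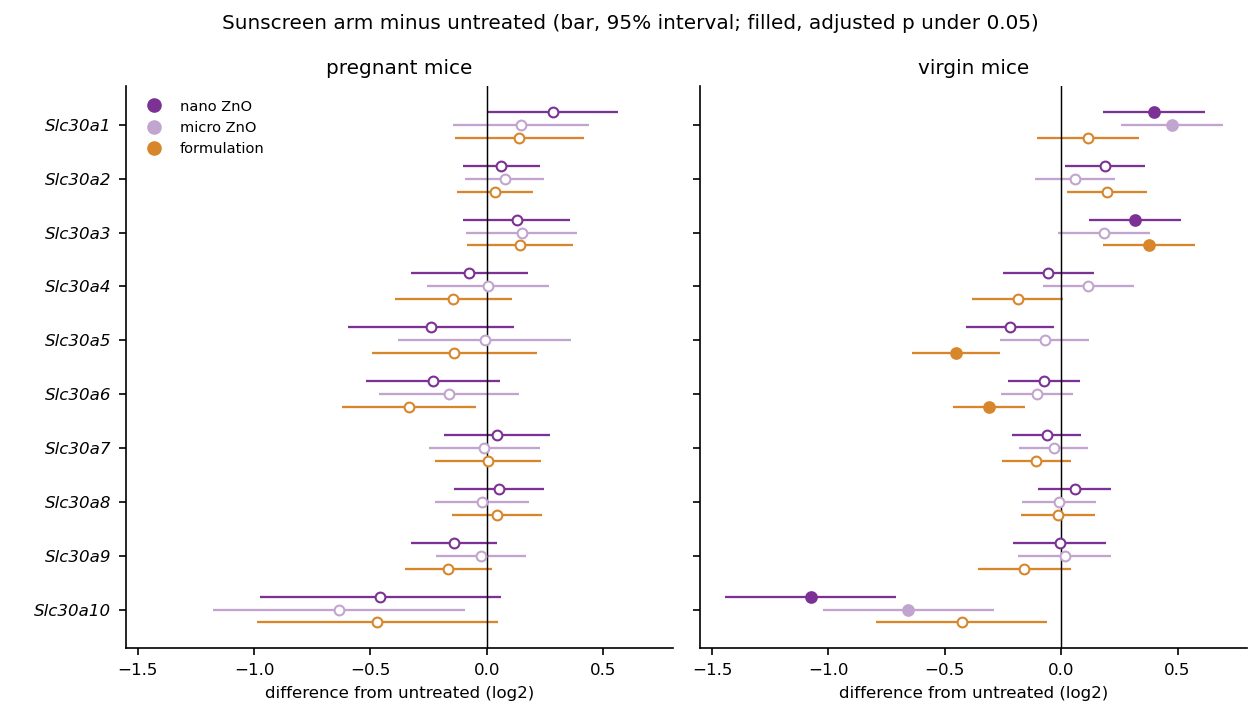
Log2 difference of each sunscreen arm from untreated (x axis) for the 10 Slc30a genes (y axis) in pregnant mice (left) and virgin mice (right), with 95% intervals and filled points for called differences. Slc30a10 lies furthest below 0 in virgin nano ZnO mice, at -1.08, and no point is filled in pregnant mice.

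Slc30a10, the plasma membrane manganese exporter, was lower in both particle arms of virgin mice. Its lowest, median and highest values were 6.85, 7.20 and 7.52 with nano ZnO, 6.88, 7.79 and 8.02 with micro ZnO, 7.33, 7.74 and 8.31 with formulation, and 7.85, 8.19 and 8.63 in untreated mice. All 6 nano ZnO mice lay below every untreated mouse, 5 of 6 micro ZnO mice and 3 of 6 formulation mice did so too, and micro ZnO and formulation overlapped widely. Against untreated mice Slc30a10 fell by 1.08 ± 0.18 on the log2 scale with nano ZnO (limma adjusted p = 0.000578), to 0.474 of the untreated signal. With micro ZnO it fell by 0.66 ± 0.18 (limma adjusted p = 0.0341). The formulation difference of -0.43 ± 0.18 was not called (limma adjusted p = 0.0761). It was called without formulation replicate 1 (-0.51, limma adjusted p = 0.041), formulation replicate 2 (-0.52, 0.0415) or untreated replicate 2 (-0.51, 0.0411). The micro ZnO call was lost in 6 of 12 fits that left out 1 array, with limma adjusted p up to 0.0999, and with all probe sets tested (0.0632). It was also lost after further quantile normalization (0.0518), with intensity trend and robust moderation (0.0547) and with the replicate number as a block (0.071).

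Pregnant mice gave Slc30a10 differences of the same sign without a call. The values were 6.19, 6.93 and 7.95 (lowest, median, highest) with nano ZnO and 6.59, 6.98 and 7.61 with formulation. The 5 micro ZnO mice had 7.39, 7.31, 6.91, 6.51 and 6.24, and the 5 untreated mice had 8.03, 7.19, 7.56, 7.63 and 7.12. The groups overlapped, with nano ZnO spanning the widest range. Differences from untreated were -0.46 with nano ZnO (95% interval -0.98 to 0.06), -0.64 with micro ZnO (-1.18 to -0.09) and -0.47 with formulation (-0.99 to 0.05), with limma adjusted p of 0.524, 0.442 and 0.439.

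Slc30a1, which exports zinc across the plasma membrane and is an MTF1 target, was higher in both particle arms of virgin mice. Lowest, median and highest values were 7.67, 7.86 and 7.98 with nano ZnO, 7.60, 7.89 and 8.32 with micro ZnO, 7.28, 7.46 and 7.94 with formulation, and 7.25, 7.44 and 7.59 in untreated mice. All 6 nano ZnO and all 6 micro ZnO mice lay above every untreated mouse, while 2 of 6 formulation mice did. Slc30a1 rose by 0.40 ± 0.11 with nano ZnO (limma adjusted p = 0.0163) and by 0.47 ± 0.11 with micro ZnO (limma adjusted p = 0.0109). The formulation difference was 0.12 ± 0.11 (95% interval -0.10 to 0.33, limma adjusted p = 0.432). Pregnant mice had lowest, median and highest values of 7.15, 7.52 and 8.002 with nano ZnO and 7.17, 7.46 and 7.58 with formulation. The 5 micro ZnO mice had 7.51, 7.43, 7.11, 7.54 and 7.64, and the 5 untreated mice had 7.62, 7.54, 7.09, 7.05 and 7.20. These groups overlapped, with 3 untreated mice at or below 7.20, and the differences were 0.28 with nano ZnO, 0.15 with micro ZnO and 0.14 with formulation, with limma adjusted p of 0.483, 0.82 and 0.691.

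**Figure D2:**
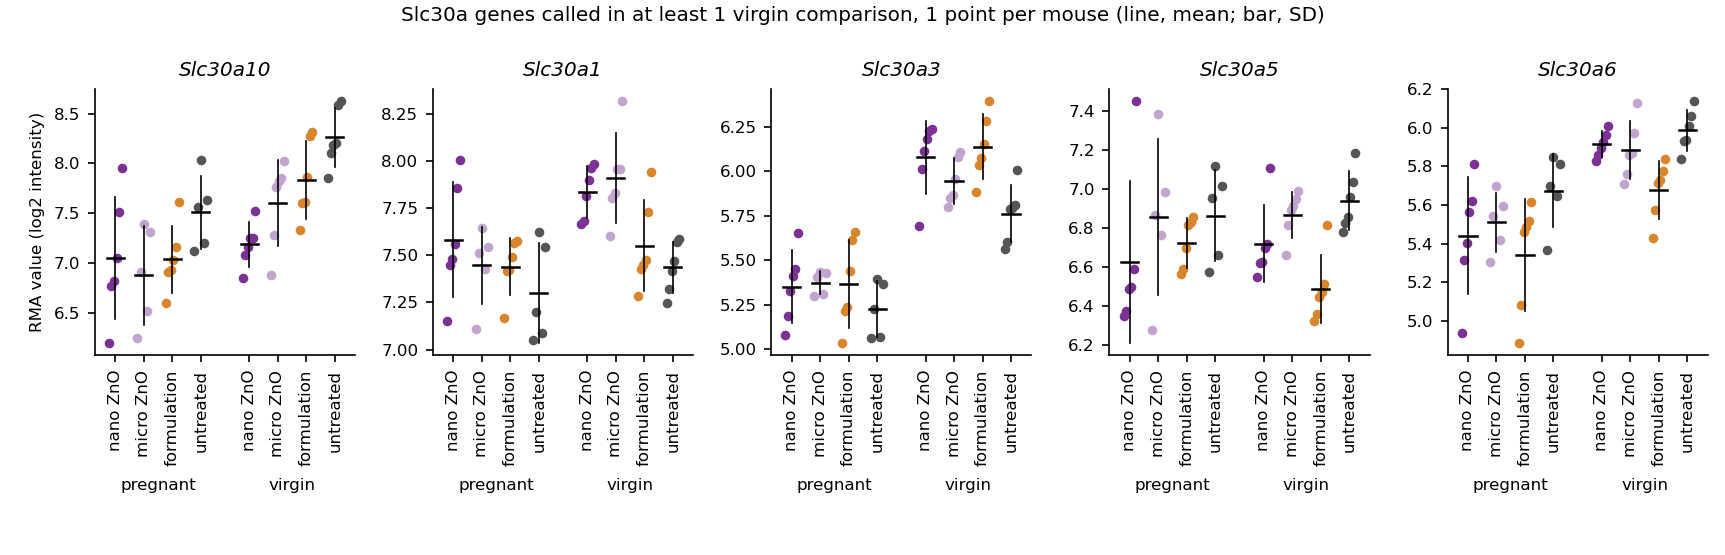
RMA log2 values (y axis) of the 5 exporters called in at least 1 virgin comparison, 1 point per mouse, by arm in pregnant mice (left of each panel) and virgin mice (right), with the mean as a line and the SD as a bar. In virgin mice the nano ZnO points of Slc30a10, at 6.85 to 7.52, lie below all untreated points, and those of Slc30a1, at 7.67 to 7.98, lie above them.

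Among the intracellular transporters, Slc30a3, which loads zinc into synaptic vesicles in brain, was higher in virgin mice with nano ZnO and with formulation. Its lowest, median and highest values were 5.69, 6.15 and 6.24 with nano ZnO, 5.80, 5.91 and 6.11 with micro ZnO, 5.88, 6.11 and 6.40 with formulation, and 5.56, 5.79 and 6.01 in untreated mice. In nano ZnO and in formulation 5 of 6 mice lay above every untreated mouse. Slc30a3 rose by 0.32 ± 0.10 with nano ZnO (limma adjusted p = 0.0319) and by 0.38 ± 0.10 with formulation (limma adjusted p = 0.0062), and with micro ZnO the difference was 0.18 ± 0.10 (limma adjusted p = 0.279). The nano ZnO call was lost in 6 of 12 fits that left out 1 array, with limma adjusted p up to 0.0858, and after further quantile normalization (0.056). In pregnant mice the Slc30a3 differences were 0.13 with nano ZnO, 0.15 with micro ZnO and 0.14 with formulation, none of them called.

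Slc30a5 and Slc30a6 encode partners of a complex that supplies zinc to enzymes of the early secretory pathway, in which Slc30a5 transports and Slc30a6 does not. Slc30a5 had lowest, median and highest values of 6.55, 6.66 and 7.11 with nano ZnO, 6.66, 6.90 and 6.99 with micro ZnO, 6.32, 6.46 and 6.81 with formulation, and 6.78, 6.91 and 7.18 in untreated virgin mice. Slc30a6 had 5.83, 5.91 and 6.01 with nano ZnO, 5.71, 5.86 and 6.13 with micro ZnO, 5.43, 5.72 and 5.84 with formulation, and 5.84, 5.97 and 6.14 in untreated virgin mice. For Slc30a5, 5 of 6 nano ZnO mice and 5 of 6 formulation mice lay below every untreated mouse. For Slc30a6 all 6 formulation mice did. With formulation Slc30a5 fell by 0.45 ± 0.09 (limma adjusted p = 0.00124) and Slc30a6 fell by 0.31 ± 0.08 (limma adjusted p = 0.00449). The Slc30a5 difference with nano ZnO was -0.22 ± 0.09 (limma adjusted p = 0.117), and without replicate 6, which read 7.11, it was -0.30 (limma adjusted p = 0.021). Across pregnant arrays the partners had r = 0.42 (0.379 with arm means removed, 22 arrays), and across virgin arrays r = 0.691 (0.424, 24 arrays). Those arrays share their normalization, and the correlation is given as a description. In pregnant mice the differences from untreated were -0.24, -0.01 and -0.14 for Slc30a5 and -0.23, -0.16 and -0.33 for Slc30a6 with nano ZnO, micro ZnO and formulation. Of these the Slc30a6 formulation difference had the smallest limma adjusted p, 0.357.

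The remaining exporters were called in 0 comparisons, although Slc30a4 was called for virgin micro ZnO against formulation under some of the alternatives given below. Slc30a7 also supplies the early secretory pathway, Slc30a4 and Slc30a2 fill endosomes and vesicles, Slc30a9 exports zinc from mitochondria, and Slc30a8 loads insulin granules in pancreatic islets. Differences of these 5 genes from untreated ran from -0.16 (Slc30a9 with formulation) to 0.08 (Slc30a2 with micro ZnO) in pregnant mice and from -0.19 (Slc30a4 with formulation) to 0.20 (Slc30a2 with formulation) in virgin mice. Slc30a2 in virgin formulation mice had an unadjusted p of 0.0256 and a limma adjusted p of 0.0784. Slc30a7 varied least among the virgin arrays that lay above the 40th percentile, with an SD of 0.11 over 24 arrays, beside 0.51 for Slc30a10.

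**Figure D3:**
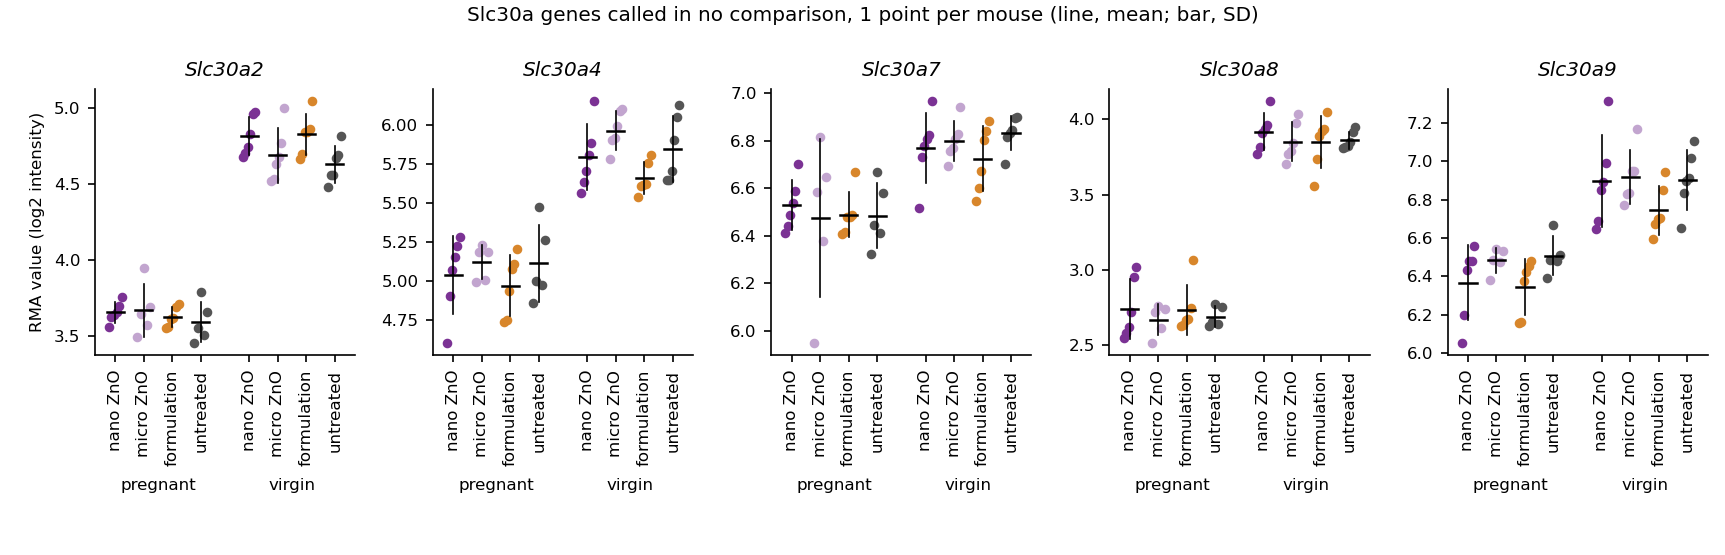
RMA log2 values (y axis) of the 5 exporters called in no comparison, 1 point per mouse, by arm in pregnant mice (left of each panel) and virgin mice (right), with the mean as a line and the SD as a bar. The arms overlap in every panel, as for Slc30a8 in pregnant mice, whose values lie between 2.51 and 3.06.

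Particle arms were next set against the formulation arm, which asks what the particles add to the sunscreen base. In virgin mice 1 of 10 members was called for nano ZnO (3.25% of all probe sets) and 2 of 10 for micro ZnO (6.83%). Slc30a10 fell by 0.65 ± 0.18 with nano ZnO relative to formulation (limma adjusted p = 0.0427), and 5 of 6 nano ZnO mice lay below every formulation mouse. Slc30a1 rose by 0.36 ± 0.11 with micro ZnO relative to formulation (limma adjusted p = 0.0394), with 3 of 6 mice above every formulation mouse. Slc30a5 was higher by 0.38 ± 0.09 in the same comparison (limma adjusted p = 0.0146), with 4 of 6 mice above. Against untreated mice its micro ZnO difference was -0.07 ± 0.09 (limma adjusted p = 0.702) and its formulation difference was -0.45, so the formulation arm was the low one. For micro ZnO against formulation the Slc30a4 difference of 0.30 ± 0.10 had a limma adjusted p of 0.052. It was called with dim probe sets left out (0.0351), after further quantile normalization (0.0434) and with intensity trend and robust moderation (0.0461). The Slc30a10 call was lost in 9 of 12 fits that left out 1 array, with limma adjusted p up to 0.115, and the Slc30a1 call in 9 of 12, up to 0.0927. Both of these calls were also lost in the fits with an array measure as a covariate, given below.

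Particle size gave no call among the exporters. Between nano ZnO and micro ZnO 0 of 10 were called in pregnant mice (0% of all probe sets) and 0 of 10 in virgin mice (0%). In pregnant mice the difference of Slc30a10 was 0.18 (-0.34 to 0.70) and that of Slc30a5 was -0.23 (-0.59 to 0.13). In virgin mice the largest difference was that of Slc30a10, -0.42 (95% interval -0.79 to -0.05), with an unadjusted p of 0.0271 and a limma adjusted p of 0.993. Slc30a1 differed by -0.08 (95% interval -0.30 to 0.14). Against formulation, 0 of 10 were called in pregnant mice for nano ZnO (0%) and 0 of 10 for micro ZnO (0%).

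Whether the responses differed between pregnant and virgin mice was tested directly. The difference of the responses was called for 0 of 10 members with nano ZnO (0.0427% of all probe sets), 0 with micro ZnO (0.047%) and 0 with formulation (0.145%), and 0 of the 30 tests had an unadjusted p under 0.05. For Slc30a10 with nano ZnO, the response of -0.46 in pregnant mice was set against -1.08 in virgin mice, a difference of 0.62 ± 0.32 (95% interval -0.03 to 1.26, limma adjusted p = 0.792). For Slc30a1 with micro ZnO the difference was -0.33 ± 0.18 (95% interval -0.69 to 0.03, limma adjusted p = 0.719). Slc30a5 with formulation gave 0.31 ± 0.20 (95% interval -0.09 to 0.71). These intervals are wide, and a missed threshold does not show that the responses were alike. Pregnancy and experiment cannot be told apart.

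The mice also differed in the expression of circadian clock genes, which was summarised per array as the mean of Dbp, Tef, Hlf, Per2, Per3, Ciart, Nr1d1 and Nr1d2 minus the mean of Arntl, Clock and Nfil3. This score averaged 0.35 with nano ZnO, 0.78 with micro ZnO, 1.04 with formulation and -0.55 in untreated pregnant mice. In virgin mice it averaged 1.09 with nano ZnO, 0.89 with micro ZnO, -0.22 with formulation and -1.23 in untreated mice. Against untreated virgin mice, 8 of 15 measured clock genes rose and 4 fell with nano ZnO (11.9% of all probe sets called). With micro ZnO 8 rose and 2 fell (4.43%), and with formulation 5 rose and 1 fell (26.5%). In pregnant mice 0 clock genes were called against untreated in these arms (0.0214%, 0.107% and 0.0598%). Slc30a10 followed the score inversely in both experiments. Pearson's r was -0.835 over the 22 pregnant arrays (Spearman's rho -0.811, permutation p = 1e-05, adjusted 0.0001) and -0.91 over the 24 virgin arrays (rho -0.9, permutation p = 1e-05, adjusted 0.0001), where 1e-05 is the smallest p that 100000 permutations can give and the adjustment covers 40 relations. Without the 2 arrays farthest from the median score, r was -0.744 in pregnant and -0.883 in virgin mice. With arm means removed r was -0.821 in pregnant mice (permutation p = 1e-05, adjusted 0.0004) and -0.854 in virgin mice (permutation p = 4e-05, adjusted 0.000533). Within single arms it ran from -0.83 to -0.946 in 7 of 8 groups and was -0.193 among virgin nano ZnO mice, whose scores spanned 0.76 to 1.37.

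With the score as a covariate, the Slc30a10 difference from untreated in virgin mice was -0.01 with nano ZnO (limma adjusted p = 0.992) and 0.32 with micro ZnO (limma adjusted p = 0.589), and both calls were lost. Most calls over all probe sets were lost in this fit too, from 2796 to 7 with nano ZnO and from 1036 to 27 with micro ZnO. Against formulation, the virgin nano ZnO difference of Slc30a10 was -0.05 in this fit (limma adjusted p = 0.898), and that call was lost. Calls over all probe sets in that comparison went from 760 to 574. The part of clock gene expression in the Slc30a10 differences was not tested beyond this fit, because score and arm move together. Slc30a1 had r = 0.181 with the score in pregnant mice (rho 0.152, permutation p = 0.415, adjusted 0.535) and 0.758 in virgin mice (rho 0.725, permutation p = 2e-05, adjusted 0.000133). Leaving out the 2 farthest arrays gave 0.392 and 0.698 in pregnant and virgin mice, and with arm means removed the virgin r was 0.432 (permutation p = 0.108, adjusted 0.228). Within single virgin arms it was 0.439 with nano ZnO, 0.62 with micro ZnO, 0.514 with formulation and -0.805 in untreated mice, so the arms differed in sign. With the score as a covariate the virgin Slc30a1 difference was 0.10 with nano ZnO (limma adjusted p = 0.919) and 0.20 with micro ZnO (limma adjusted p = 0.784).

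**Figure D4:**
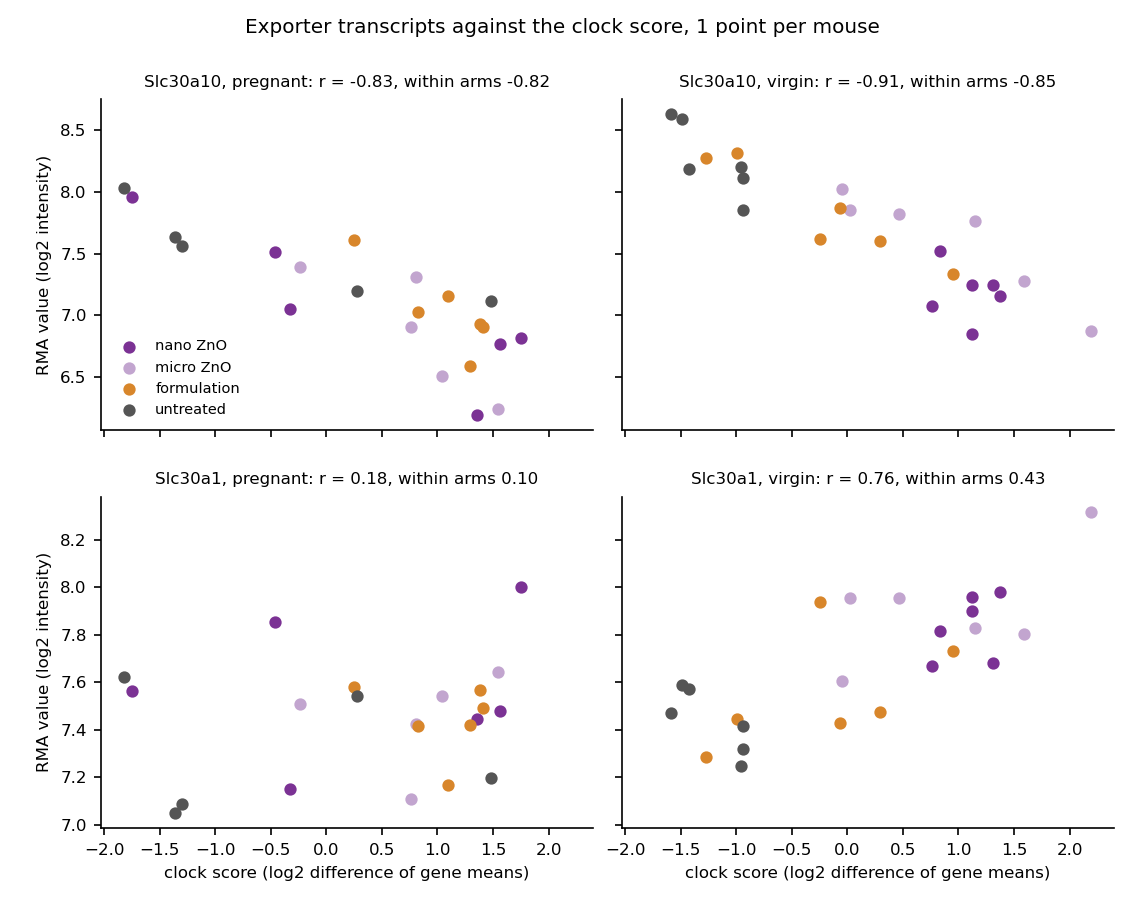
RMA log2 values (y axis) of Slc30a10 (top) and Slc30a1 (bottom) against the clock score of the same array (x axis, log2 difference of gene means) in pregnant mice (left) and virgin mice (right), coloured by arm. Slc30a10 declines along the score in both experiments, with r = -0.835 and -0.91, and the untreated virgin mice sit at the low end of the score.

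A further array measure was the interquartile range of the log2 values, which averaged 3.14 with nano ZnO, 3.16 with micro ZnO, 3.11 with formulation and 3.17 in untreated pregnant mice, and 2.90, 2.91, 2.83 and 2.97 in these arms of virgin mice. Over the 24 virgin arrays Slc30a4, Slc30a5, Slc30a6, Slc30a7 and Slc30a9 had r with it from 0.64 to 0.817 (rho 0.653 to 0.758, 0.639 to 0.732 without the 2 farthest arrays), and Slc30a3 had -0.736 (rho -0.705, -0.612 without them), with adjusted permutation p from 0.0001 to 0.00369. With arm means removed, Slc30a4 (r = 0.802), Slc30a9 (0.717), Slc30a6 (0.676), Slc30a5 (0.596) and Slc30a7 (0.596) followed this width positively in virgin mice. Slc30a3 followed it inversely (-0.56), and adjusted permutation p ran from 0.0004 to 0.043. Slc30a2 was inverse too, at -0.612 (adjusted 0.00494) and at -0.472 with arm means removed (adjusted 0.0631). In pregnant mice those positive genes had r from 0.322 to 0.546 with arm means removed (adjusted 0.0734 to 0.297). Slc30a2 and Slc30a8, with little signal there, had -0.536 and -0.568 (adjusted 0.0418 and 0.043). Slc30a1 had r of 0.0556 in pregnant mice and 0.0447 in virgin mice (permutation p = 0.827 and 0.825). With the width as a covariate the formulation calls were lost: Slc30a3 then differed by 0.13, Slc30a5 by -0.20 and Slc30a6 by -0.10, with limma adjusted p of 0.711, 0.456 and 0.708. Of the particle calls against untreated, 2 were kept, Slc30a10 with nano ZnO at -0.96 (limma adjusted p = 0.00783) and Slc30a1 with micro ZnO at 0.48 (limma adjusted p = 0.0237). The other 3 were lost, Slc30a10 with micro ZnO at -0.56 (limma adjusted p = 0.123), Slc30a1 with nano ZnO at 0.41 (0.0514) and Slc30a3 with nano ZnO at 0.20 (0.254). Over all probe sets, calls in this fit fell from 6203 to 179 with formulation, from 2796 to 966 with nano ZnO and from 1036 to 529 with micro ZnO. The virgin calls against formulation were lost in this fit too. Slc30a5 with micro ZnO was at 0.23 (limma adjusted p = 0.248), Slc30a1 with micro ZnO at 0.35 (0.199) and Slc30a10 with nano ZnO at -0.77 (0.0618). Over all probe sets, calls against formulation went from 1599 to 214 with micro ZnO and from 760 to 156 with nano ZnO. Width and arm move together in virgin mice, and the part of width in the Slc30a5 and Slc30a6 differences cannot be told apart from that of the arm.

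**Figure D5:**
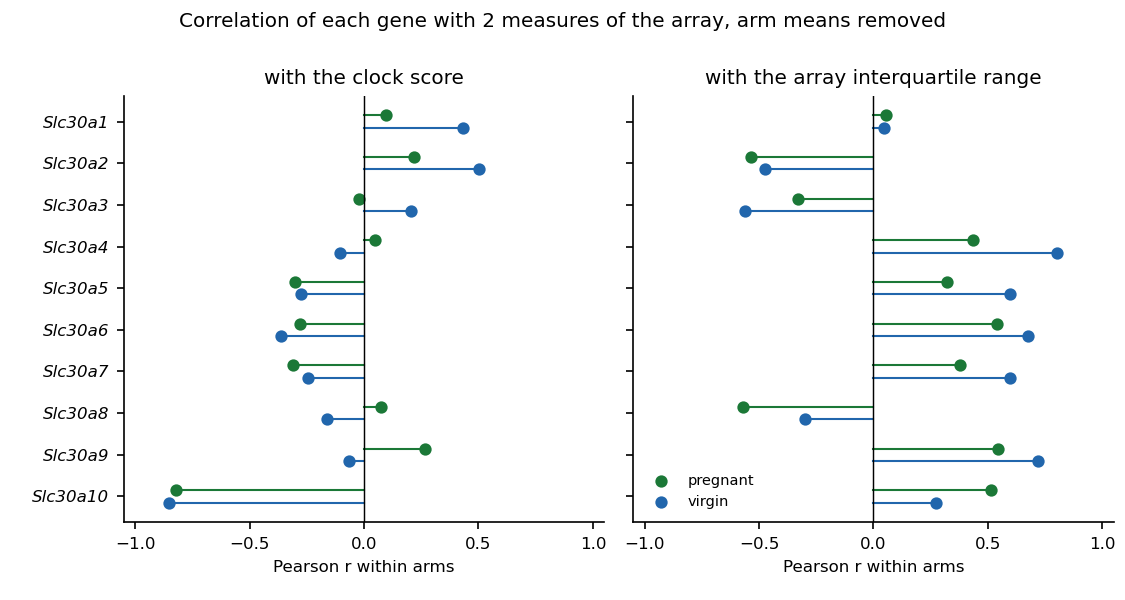
Pearson r with arm means removed (x axis) between each Slc30a gene (y axis) and the clock score (left) or the interquartile range of the array (right), in pregnant mice and virgin mice. Slc30a10 stands at -0.821 and -0.854 with the clock score, and Slc30a4 at 0.436 and 0.802 with the interquartile range.

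Marker genes of some other liver cells moved in the same virgin comparisons with untreated mice. Of Kupffer cell and macrophage markers 0 of 5 were called in each of these comparisons, and of cholangiocyte markers 0 of 4. Endothelial markers were lower in 3 of 5 with nano ZnO, 3 of 5 with micro ZnO and 3 of 5 with formulation, and their mean level lay at 6.43 to 6.876 with nano ZnO, 6.47 to 6.819 with micro ZnO, 6.37 to 6.813 with formulation and 6.885 to 7.125 in untreated mice. Neutrophil markers were higher in 4 of 5 with nano ZnO and 4 of 5 with formulation and in 0 of 5 with micro ZnO, with mean levels of 4.622 to 6.439, 4.69 to 5.618 and 4.038 to 4.712 in these arms and 4.215 to 4.545 in untreated mice. Hepatic stellate markers were lower in 1 of 5 with nano ZnO and 2 of 5 with micro ZnO, and 2 of 5 were lower and 1 higher with formulation, and their mean level lay at 6.622 to 7.041 with nano ZnO, 6.484 to 6.815 with micro ZnO, 6.683 to 6.87 with formulation and 6.787 to 7.027 in untreated mice. The erythroid marker Alas2 differed by -0.84 with nano ZnO, -0.94 with micro ZnO and -0.89 with formulation, all called, and lay at 6.039 to 6.482, 5.365 to 6.516 and 6.024 to 6.4 in these arms and 6.609 to 7.691 in untreated mice. Over all probe sets 11.9%, 4.43% and 26.5% were called in these comparisons. Against untreated pregnant mice, neutrophil markers were higher in 2 of 5 with micro ZnO (0.107% of all probe sets). With nano ZnO and with formulation 0 of 5 were called there. Their mean level lay at 5.573 to 6.905 in pregnant micro ZnO mice and 4.489 to 5.103 in untreated pregnant mice. The part of these cell types in the Slc30a differences was not tested.

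Partner genes of the exporters were described from lists of zinc and manganese genes. Of 14 zinc importers, 2 rose and 5 fell with nano ZnO, 1 rose and 2 fell with micro ZnO, and 2 rose and 5 fell with formulation in virgin mice, with 0 called against untreated in pregnant mice. Over all probe sets the called shares in these virgin comparisons were 11.9%, 4.43% and 26.5%, and the counts of the lists that follow stand against the same shares. In the pregnant comparisons the shares were 0.0214%, 0.107% and 0.0598%. The importer Slc39a4, which takes up zinc in the intestine, fell by 1.35 ± 0.10 with nano ZnO, by 1.30 ± 0.10 with micro ZnO and by 1.03 ± 0.10 with formulation (limma adjusted p = 5.75e-09, 1.51e-08 and 4.48e-07). Its response differed between pregnant and virgin mice by 0.93 ± 0.16 with nano ZnO (limma adjusted p = 0.00405) and by 1.03 ± 0.16 with micro ZnO (limma adjusted p = 0.00308). In pregnant mice Slc39a4 averaged 6.16 with nano ZnO, 6.32 with micro ZnO, 6.09 with formulation and 6.58 in untreated mice. It was thus lower in every sunscreen arm there as well, without a call. Slc39a14, an importer of zinc and manganese that hepatocytes use, rose by 0.45 ± 0.15, 0.52 ± 0.15 and 0.54 ± 0.15 in the nano ZnO, micro ZnO and formulation arms of virgin mice (limma adjusted p = 0.0465, 0.0421 and 0.01).

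The metallothionein genes Mt1 and Mt2, whose products buffer cytosolic zinc, rose in all 3 sunscreen arms of virgin mice. Mt1 rose by 1.38 ± 0.19 with nano ZnO, 1.53 ± 0.19 with micro ZnO and 1.71 ± 0.19 with formulation (limma adjusted p = 0.000139, 4.98e-05 and 3.43e-06). Mt2 rose by 1.44 ± 0.28, 1.80 ± 0.28 and 1.97 ± 0.28 in these arms (limma adjusted p = 0.00193, 0.000557 and 5.01e-05). Of 9 manganese-handling genes, 1 rose and 0 fell with nano ZnO and with micro ZnO, and 1 rose and 4 fell with formulation, among them the iron exporter Slc40a1 (-0.52, limma adjusted p = 0.000812). Of 6 measured genes listed as zinc enzymes of the secretory pathway, 1 fell with nano ZnO, 1 rose with micro ZnO and 3 fell with formulation. Whether each of them depends on zinc from the Slc30a5 complex or Slc30a7 was not tested. The 3 that fell with formulation were Nt5e (-0.59), Pgap2 (-0.32) and Enpp3 (-0.55). In pregnant mice these 4 lists had 0 called against untreated. Of all probe sets, 0.0214% were called there with nano ZnO, 0.107% with micro ZnO and 0.0598% with formulation. At these shares a count of 0 says little about a list. Mt1 averaged 12.22 with nano ZnO, 12.24 with micro ZnO, 12.24 with formulation and 11.72 in untreated pregnant mice. Mt2 averaged 12.02, 12.11, 12.07 and 11.31 in these groups. For 1 of 5 genes in the list with Mt1 and Mt2, the formulation response was called lower in pregnant than in virgin mice. For 1 of 14 zinc importers it was called higher, and 0.145% of all probe sets were called in that test.

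Likeness of pattern was described over the 24 virgin arrays among 12040 genes above the 40th percentile. The genes most like Slc30a10 were Tubb2a (r = 0.901), Tars (0.9) and Stra6l (0.9), and over the 22 pregnant arrays the same pairs had r of 0.821, 0.811 and 0.791. Those most like Slc30a1 were Lipg (0.892), Gde1 (0.89) and Tmem97 (0.869), with 0.0782, 0.567 and -0.163 in pregnant mice. For Slc30a5 they were Vwa5a (0.912), Gosr2 (0.899) and Ate1 (0.89), with 0.521, 0.609 and 0.0635 in pregnant mice. For Slc30a6 they were Tnpo3 (0.903), Xpo7 (0.884) and Ccdc25 (0.879), with 0.632, 0.628 and 0.536. For Slc30a3 they were Megf6 (0.896), Kctd17 (0.878) and Dyrk1a (0.878), with 0.247, 0.0456 and 0.235. The arrays share their normalization and arms, and these values are a description.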

How the data were processed

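Liver RNA of 46 mice was measured on Affymetrix whole-transcript arrays, 1 per mouse, and the labels call the replicates of a group biological. The deposited values are log2 intensities made by the authors with RMA (background correction, quantile normalization and summarization), per the submitters' processing notes; no version is given in the sources used here. All 46 columns were used and 0 were left out. The number of arrays limits the precision, and the files used hold no detection calls or scan times.

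The 23410 probe sets with a symbol were tested (21789 carry a single gene, 1621 more than 1), and the 12102 without one were not. Linear models were fitted with limma 3.58.1 in R 4.3.3 to the 4 arms of each experiment, and to all 8 groups for the difference between responses of pregnant and virgin mice. Tests were two-sided, with Benjamini-Hochberg adjustment over the 23410 probe sets. Correlations across arrays used 100000 permutations in Python 3.11.15 with scipy 1.17.1. The fits were tested on simulated data. Alternatives were dim probe sets left out, all probe sets, a further quantile normalization, intensity trend with robust moderation, the replicate number as a block, clock score or interquartile range as a covariate, and each array left out. All 10 members are named. From each list, Mt1, Mt2, Slc39a4 and Slc39a14 are always named, with up to 4 members of smallest p. The members and lists were chosen with earlier results of these data known.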

Additional observations from a re-analysis of the deposited data

Results flagged for a closer look

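In 4 of the 80 groups of mice examined for the 10 exporters, 1 array lay far from the others of its group by Dixon's test, and chance flags about 1 in 20 groups. Slc30a5 read 7.45 in pregnant nano ZnO replicate 2, beside 6.35 to 6.59 in the others, and 7.11 in virgin nano ZnO replicate 6, beside 6.55 to 6.72. Slc30a7 read 6.67 in pregnant formulation replicate 3, beside 6.41 to 6.49. Slc30a8 read 3.06 in pregnant formulation replicate 2, beside 2.63 to 2.75. Without virgin nano ZnO replicate 6, the Slc30a5 difference from untreated was -0.30 (limma adjusted p = 0.021).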

How the results depend on the processing

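Of the alternative values for single exporters, 3014 kept their side of the threshold, 59 lost a call and 12 gained one. Most of the 3014 were differences without a call that stayed without one. The 3014 therefore say little about how stable the calls were, and the losses of calls are given by fit below. A change of sign was counted only where a call was involved, and 1 value reversed in this way. It was the virgin micro ZnO difference of Slc30a10, which was 0.32 with the clock score as a covariate. The sign of differences without a call was not followed. In virgin mice the members called with micro ZnO against untreated numbered 1 with all probe sets, with further quantile normalization, with intensity trend and robust moderation, with the replicate block and with array interquartile range in the fit, and 0 with clock score in it. With nano ZnO against untreated they numbered 2 with further quantile normalization and with the replicate block, where Slc30a3 was lost (limma adjusted p = 0.056 and 0.0597), 1 with the interquartile range and 0 with the clock score. With formulation against untreated they numbered 0 with the interquartile range and 1 with the clock score. Calls over all probe sets fell in the same fits. With the interquartile range they went from 6203 to 179 (formulation), 2796 to 966 (nano ZnO) and 1036 to 529 (micro ZnO). With the clock score they went to 2462, 7 and 27. For micro ZnO against formulation the members called numbered 1 with all probe sets and with the replicate block and 0 with the interquartile range. The number was 3 with dim probe sets left out and with intensity trend, where Slc30a4 was gained. There they numbered 2 with quantile normalization, where Slc30a1 was lost (0.26, limma adjusted p = 0.161) and Slc30a4 gained, and 2 with the clock score, where Slc30a1 was lost (0.21, 0.284) and Slc30a6 gained (0.28, 0.0477). For nano ZnO against formulation they numbered 0 with all probe sets, with intensity trend and robust moderation, with the replicate block, with the interquartile range and with the clock score. Over all probe sets, calls of micro ZnO against formulation went from 1599 to 214 with the interquartile range and to 1791 with the clock score. Those of nano ZnO against formulation went from 760 to 156 and 574. Leaving out each array gave 3 to 4 members (formulation against untreated), 1 to 2 (micro ZnO against untreated), 2 to 4 (nano ZnO against untreated), 1 to 3 (micro ZnO against formulation) and 0 to 2 (nano ZnO against formulation), and 0 in each of the pregnant comparisons, the responses and nano ZnO against micro ZnO. The Slc30a10 call with micro ZnO did not survive dropping micro ZnO replicate 1 or 4, nor dropping untreated replicate 1, 3, 5 or 6 (differences of -0.74 to -0.51 over all 12 fits, limma adjusted p up to 0.0999). The Slc30a3 call with nano ZnO was lost without nano ZnO replicate 1, 3, 4 or 5 or untreated replicate 1 or 4 (0.28 to 0.39, up to 0.0858). The Slc30a10 call of nano ZnO against formulation was lost without formulation replicate 1, 2, 4 or 6 or any nano ZnO replicate but 3 (-0.75 to -0.55). The Slc30a1 call of micro ZnO against formulation was lost without formulation replicate 1, 2, 4 or 6 or any micro ZnO replicate but 3 (0.28 to 0.44). Arrays with the same replicate number did not pair (median correlation of deviations 0.0241 in pregnant and -0.127 in virgin mice, with 3 of 22 and 0 of 24 arrays best matched to their own number). Without pregnant micro ZnO replicates 3 and 4, which lay apart, 0 members were called in the 3 pregnant comparisons with micro ZnO. Each exporter has 1 probe set, so a second probe set could not be tried. The virgin Slc30a4 difference of micro ZnO against formulation was also called without formulation replicate 1 (limma adjusted p = 0.0479), formulation replicate 3 (0.0478) or micro ZnO replicate 6 (0.0441). The cause of these changes was not tested.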
